A study of Mus musculus with 3 samples.

Results

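TBX5 peaks of the Hoxa cluster were examined in libraries titled as lung of mouse embryos. The members were chosen from the peak list itself: a peak was taken if its summit lay inside the gene body of Hoxa2, Hoxa3, Hoxa4, Hoxa5, Hoxa6, Hoxa7, Hoxa9, Hoxa10 or Hoxa11, or if the nearest end of a protein-coding gene, within 100 kb, belonged to 1 of these 9 genes. This gave 31 of the 28381 peaks. Since the presence of peaks chose the members, their number and place are given as a description with no test.

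TBX5, a T-box transcription factor, was mapped by ChIP-seq (immunoprecipitation of cross-linked chromatin, followed by sequencing of its DNA) in CD-1 embryos at E14.5, with 2 ChIP libraries, each described as 1 whole lung, and 1 input library. No genotype or treatment other than this stock is named for any library. All 3 titles name lung, but the source field of ChIP library 2 and of the input names heart, and which is right was not tested. The data were 1 peak list for the series, so no value per library, no spread between replicates and no depth can be given, and a library could not be left out.

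Hox genes encode homeodomain transcription factors that give cells their position along the body axis. They stand in 4 clusters, and within a cluster the genes at the 3′ side (low numbers) are switched on earlier and further forward in the embryo than those at the 5′ side (high numbers), called anterior and posterior genes here. Hoxa5, in the middle of its cluster, is made in lung mesenchyme and is needed for normal trachea and lung formation. T-box factors bind a short DNA element whose core is AGGTGT. Gene expression was not measured in these libraries, so a peak here is a place where TBX5 was found and no more.

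Peaks lay over the anterior side of the cluster. Of the 31 peaks, 30 had their nearest gene end at Hoxa2 to Hoxa6, and 1 at Hoxa10. Of the 9 genes 6 thus had an assigned peak, as had 39.8% of 21631 protein-coding genes, and Hoxa7, Hoxa9 and Hoxa11 had 0. The strongest peaks stood at Hoxa2, Hoxa3 and Hoxa4, while Hoxa5 and Hoxa6 had only weaker ones. The promoter sequences of 3 genes show the range: Hoxa2 under the strongest peak, Hoxa5 partly under one of 6.55-fold, and the inner promoter of Hoxa10, beside the last peak on the posterior side but not covered by it. Each line gives the 250 bases before the gene's start from RefSeq (GRCm38.p6, the assembly of mm10, minus strand), with matches in capitals to AGGTGT (T-box core), TGACAG (a Meis element) or TGATTNAT (a Hox and Pbx element) on either strand.
Hoxa2 promoter, chr6:52164832-52165081: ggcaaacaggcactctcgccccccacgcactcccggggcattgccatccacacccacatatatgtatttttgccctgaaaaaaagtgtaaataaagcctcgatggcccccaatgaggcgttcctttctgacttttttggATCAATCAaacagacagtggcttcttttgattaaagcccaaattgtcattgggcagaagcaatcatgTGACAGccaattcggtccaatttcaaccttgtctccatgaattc
Hoxa5 promoter, chr6:52204588-52204837: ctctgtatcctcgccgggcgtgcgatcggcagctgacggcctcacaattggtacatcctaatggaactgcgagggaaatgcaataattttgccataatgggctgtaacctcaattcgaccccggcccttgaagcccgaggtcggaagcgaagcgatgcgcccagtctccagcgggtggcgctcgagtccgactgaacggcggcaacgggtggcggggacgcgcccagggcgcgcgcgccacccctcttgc
Hoxa10 inner promoter, chr6:52234940-52235189: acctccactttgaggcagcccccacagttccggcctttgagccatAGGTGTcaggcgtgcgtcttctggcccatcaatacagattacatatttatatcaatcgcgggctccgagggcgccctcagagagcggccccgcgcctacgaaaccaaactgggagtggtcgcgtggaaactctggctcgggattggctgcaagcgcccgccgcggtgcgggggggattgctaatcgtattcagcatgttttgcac

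The Hoxa2 sequence lay wholly within its peak and held 1 match to TGACAG and 1 to TGATTNAT, written ATCAATCA on this strand, and 0 to AGGTGT. In the Hoxa5 sequence, 235 of the 250 bases lay within a peak, and none of the 3 elements was found. The Hoxa10 sequence held 1 AGGTGT, and the nearest summit was 732 bp from that start. The promoter table held 9 windows of 300 bp for 8 of the 9 genes, all but Hoxa4. AGGTGT stood in 1 of the 9, while 12.8% of 21045 promoters of protein-coding genes held it, and 11.2% of the 3697 that a peak overlapped. TGACAG stood in 2 of the 9 windows, Hoxa2 and Hoxa3, against 18.3% of all promoters and 16.5% of those overlapped by a peak. TGATTNAT stood in 1 of the 9, against 2.78% of all and 0.811% of those overlapped. These are letters in a window and not tested sites, and most Hoxa peaks lay outside the windows. A peak overlapped 2 of the 9 windows, and 17.6% of all promoters of protein-coding genes were so overlapped. Hoxa4 has no window and is not in this count. Its end towards Hoxa5, at 52191703, lay within a peak of 13.04-fold, chr6:52191523-52192348.

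**Figure D1:**
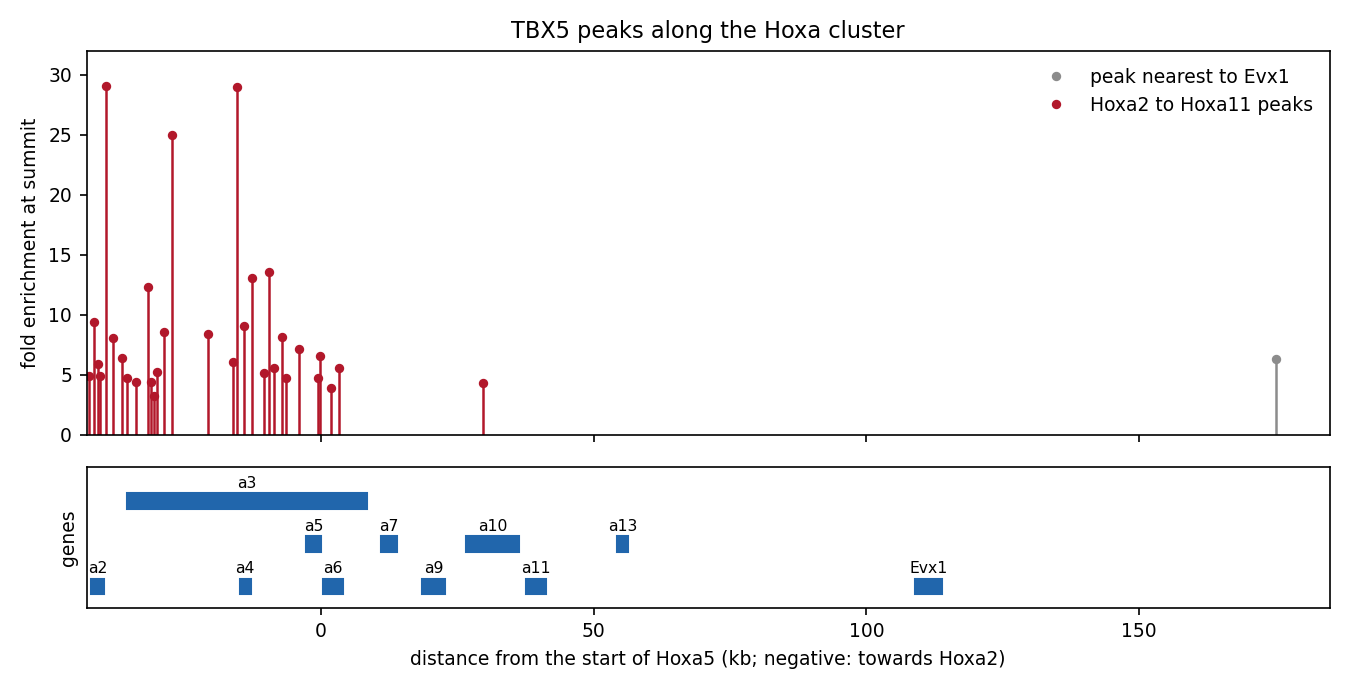
Fold enrichment at the summit (vertical axis) of each TBX5 peak against its distance in kb from the start of Hoxa5 (horizontal axis, negative towards Hoxa2), with gene bodies as boxes below, a2 to a13 for Hoxa2 to Hoxa13. Peaks crowd from Hoxa2 to Hoxa6, 1 peak lies in Hoxa10, and the next lies 145.6 kb further on, past Evx1.

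Hoxa2 patterns the hindbrain and neural crest. It had 6 peaks, of which 3 lay inside its body of 2.42 kb and 4 within 1 kb of a gene end. The highest, chr6:52164169-52166141, had a summit 381 bp before the gene's start, 29.1-fold enrichment and a −log10 q of 115, rank 297 of all peaks. It was 1973 bp wide, and 2 peaks of the list, itself included, were at least as wide. The other 5 peaks of Hoxa2 were far lower, with 4.89, 9.41, 5.87, 4.89 and 8.10-fold in order towards Hoxa3. Fold enrichment is the authors' value for the height of the peak over its local background, and −log10 q is their measure of confidence. Both were used only to rank peaks within this list.

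Hoxa3 takes part in forming the thymus, parathyroid and neck. It had 9 assigned peaks, more than any other gene of the cluster, and 1.45% of protein-coding genes had at least as many. Of these, 2 were strong, a word kept here for the top 5000 peaks by −log10 q (21.4 or more), which make up 17.6% of the list. The highest, chr6:52176795-52177693, had 25.0-fold enrichment. Its summit lay inside Hoxa3, 8.11 kb from the nearer end of the gene and 14 bp from an end of the long noncoding RNA gene 5730596B20Rik. The other strong peak, chr6:52172446-52173007, had 12.3-fold. Another peak was 1375 bp wide, with 8.58-fold. The remaining 6 ran from 3.26 to 6.42-fold, and the lowest, at chr6:52173872-52174065, exceeded only 0.7% of all peaks in fold.

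The annotated body of Hoxa3 spans 44.0 kb, from 52169059 to 52213067, and encloses Hoxa4, Hoxa5 and Hoxa6. Of the 31 peaks, 22 lay in this body, and 15 of the 22 had their nearest end at another gene. With protein-coding genes alone, membership did not rest on that body, since each of the 31 peaks also had its nearest end at a member. With noncoding genes counted too, some peaks in that body had a noncoding gene's end nearest. Only the body would then make those peaks members. Which transcripts of Hoxa3 start at its far end in lung was not tested.

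Hoxa4 had 8 peaks, 3 of them strong. The highest, chr6:52189042-52190013, had 28.95-fold enrichment, 972 bp of width and a summit 448 bp outside the body. A second strong peak, chr6:52191523-52192348, had 13.04-fold and a summit 141 bp beyond the other end. The last, chr6:52194530-52195248, had 13.6-fold and lay 3.36 kb away towards Hoxa5. The other 5 had 8.41, 6.09, 9.06, 5.18 and 5.60-fold. Strong peaks thus stood on both sides of this gene of 2.02 kb, and 1 peak, of 9.06-fold, had its summit within it.

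Hoxa5 had 5 peaks and 0 strong ones, and 5.51% of protein-coding genes had at least as many peaks. They had 8.15, 4.74, 7.11, 4.74 and 6.55-fold enrichment in order from the Hoxa4 side. The first 3 lay between the bodies of Hoxa4 and Hoxa5, from 1.24 to 4.26 kb from Hoxa5. These 3 were nearer to an end of the long noncoding RNA gene Hoxaas3 than to Hoxa5. The last 2 lay inside the gene, 624 and 274 bp downstream of its start, and the one nearer the start, chr6:52204211-52204822, reached across the start into the promoter printed above. Of the 5, 3 exceeded the median fold of all peaks, 6.27. By the same number of assigned peaks and the closest highest fold, Rgs8 (8.19), Mrps18a (8.19) and Kcnk1 (8.21) were most like Hoxa5 (8.15) among 345 other genes with 5 peaks.

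Hoxa6 had 2 peaks, both inside the gene, of 3.91 and 5.54-fold. The latter, chr6:52207649-52208061, lay 880 bp downstream of the gene's start and was the last before a stretch of 26.4 kb with no summit. That stretch takes in Hoxa7 and Hoxa9. A gap this long was common, since 51.9% of the gaps between neighbouring summits of the whole list were at least as long. Next to the close spacing from Hoxa2 to Hoxa6 it was long: neighbouring Hoxa summits had a median spacing of 1.31 kb, and the longest gap among those from Hoxa2 to Hoxa6 was 6.67 kb. The median spacing over the whole list was 28.8 kb.

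**Figure D2:**
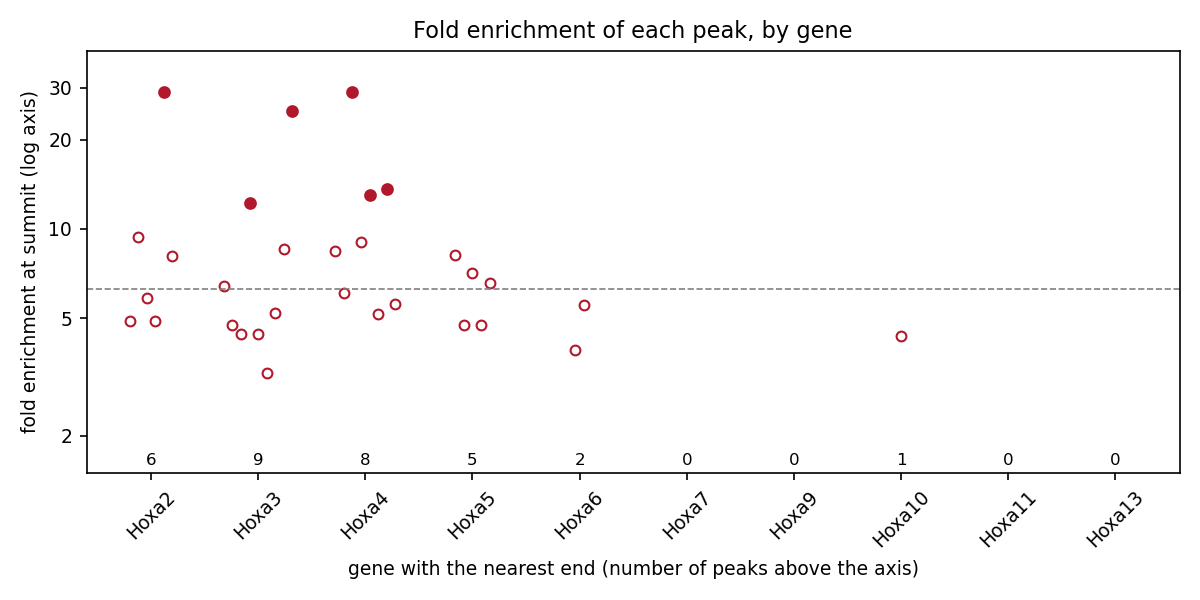
Fold enrichment at the summit (log axis) of each peak by the gene with the nearest end, in order along the cluster, where filled points are strong peaks and the dashed line is the median of all peaks, 6.27. Strong peaks stand at Hoxa2 to Hoxa4, and the numbers above the axis fall from 9 at Hoxa3 to 0 at Hoxa7.

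On the posterior side, Hoxa10 had the last peak, chr6:52234145-52234333, inside its body. Its fold was 4.35 and its −log10 q 3.79, rank 25411 of 28381, and its width was 189 bp, the minimum of the list. Beyond it no summit was listed for 145.6 kb, a stretch that holds Hoxa11, Hoxa13 and the neighbouring homeobox gene Evx1. Of all gaps between summits, 14.9% were at least as long. The next peak, at 52379802, lay 61.4 kb from Evx1 and had 6.27-fold enrichment. Hoxa9 to Hoxa13 act in the limb, the gut and the urogenital tract. The microRNA gene Mir196b, whose product is known to repress Hox messages, lies between Hoxa9 and Hoxa10 at chr6:52230081-52230165, and the nearest summit was that of the Hoxa10 peak, 4.08 kb away. Its mature product from RefSeq, with the seed (bases 2 to 8) in capitals, is shown because it marks the stretch without peaks.
mmu-miR-196b-5p: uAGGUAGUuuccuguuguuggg

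Among the flanking genes, Skap2, an adaptor protein gene on the anterior side, had 18 assigned peaks, 2 of them strong, and 14 peaks in its body. On the posterior side Evx1 had 2 assigned peaks and 0 in its body, and Hibadh, a gene of valine breakdown, had 5, of which the strongest reached 35.0-fold at chr6:52518621-52519146.

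Counted from the outer end of Hoxa2 to that of Hoxa6, 46.3 kb held 29 summits, or 6.27 per 10 kb (exact 95% Poisson interval 4.20 to 9.004). From Hoxa7 to Hoxa13, 45.3 kb held 1 summit, or 0.22 per 10 kb (0.0056 to 1.23). The whole list gave 0.111 per 10 kb. The intervals cover counting error only and treat summits as independent, which close neighbours need not be. The cut between Hoxa6 and Hoxa7 falls where the crowded peaks of this same list end. The contrast between the stretches is therefore a description, and the intervals do not test it. Among the peaks with a −log10 q in the upper 50% of the list, the anterior stretch held 15 and the posterior stretch 0. Counts also depend on how finely neighbouring signal is divided. With summits within 1 kb of each other counted as 1, the 31 member peaks became 20, a loss of 35.5%, against 8.99% for the whole list. Such joining was not particular to Hoxa, since the 38 summits from Hoxb2 to Hoxb6 also became 20.

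Strong peaks were assigned to 3 of the 9, Hoxa2, Hoxa3 and Hoxa4, against 10.9% of all genes. The 9 genes were named with earlier results of these data known, so nothing is read from the counts of genes. Peak by peak the members were not higher than the list as a whole. Their median fold was 6.09 (quartiles 4.82 and 8.82) against 6.27 (5.07 and 9.22) for all peaks, and 15 of 31 exceeded the latter. Of the 31, 6 (19.4%, exact 95% binomial interval 7.45 to 37.5%) were strong, against 17.6% of all peaks, and the same number were at or over 10-fold, against 21.2%. A share of 32.3% (16.7 to 51.4%) was under 5-fold, against 23.8% of all. No test was made of these differences.

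Member peaks were wider than the list as a whole, as were those of Hoxb. The median width was 390 bp (range 189 to 1973 bp) against 291 bp. Peaks between the outer ends of Hoxa2 and Hoxa13 had a median of 399.5 bp, and those over the same groups of Hoxb 410 bp. Of the members 6 of 31 (19.4%) were 800 bp or wider, against 2.75% of all peaks. The 6 wide peaks were divided among Hoxa2 (1), Hoxa3 (2) and Hoxa4 (3), and had 29.1, 8.58, 25.0, 28.95, 9.06 and 13.04-fold enrichment in order along the cluster. The other 25 had a median of 5.54-fold. Within 1 kb of a protein-coding gene end lay 12 of 31 summits (38.7%, 21.8 to 57.8%), against 17.6% of all summits. The rule took peaks by their distance to a gene end and genes stand close together in this cluster, so nothing is read from this share. The 12 gene-end peaks of the members had a median of 6.49-fold (quartiles 4.89 and 10.3). The other 19 had 5.87-fold (4.59 and 8.28). Over the whole list gene-end peaks had 5.49-fold and the others 6.60-fold. With so few member peaks and overlapping quartiles, nothing is read from this difference either. With noncoding genes counted too, 21 of the 31 (67.7%) lay within 1 kb of an end, against 22.5% of the list. Of the long noncoding RNA genes, LOC115490409, which overlaps the body of Hoxa3, held 7 summits in its body, the most of any. Hoxaas2, Gm15050, 5730596B20Rik and Hoxaas3 held 3, 2, 1 and 4, and Hottip and Hoxa11os, at the posterior side, held 0. The first Hoxa2 summit, outside the body of Hoxa2, lay inside the noncoding gene Hotairm1, 20 bp from an end.

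**Figure D3:**
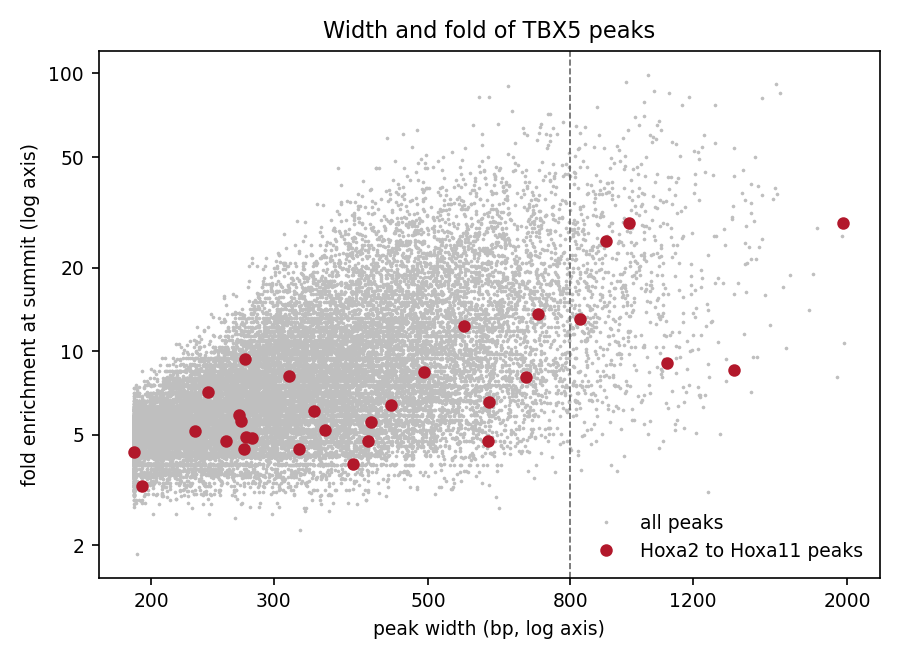
Width in bp (horizontal, log axis) and fold enrichment at the summit (vertical, log axis) of all 28381 peaks in grey and of the 31 Hoxa peaks in red, with a dashed line at 800 bp. The 6 Hoxa peaks right of the line include the 3 highest folds of the cluster, 29.1, 28.95 and 25.0.

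The 4 Hox clusters differed widely in the number of peaks. They were compared over genes of groups 2 to 13. Between the outer ends of these genes, Hoxa held 30 peaks in 98.5 kb. Hoxb held 41 peaks in 159.7 kb, and Hoxc (115.7 kb) and Hoxd (80.05 kb) held 0 each. By the upper bound of the exact 95% Poisson interval, a count of 0 allows up to 0.319 and 0.461 peaks per 10 kb there. Only 1 peak, of 5.67-fold, was assigned to any of these Hoxc genes, Hoxc4, and 0 to any of the Hoxd genes. Peaks covered 16.5% of the Hoxa cluster and 12.7% of the Hoxb cluster. In both clusters most peaks lay at the anterior genes. Genes of groups 2 to 6 had 30 of the 31 assigned Hoxa peaks and 39 of the 42 Hoxb peaks. Hoxa4 and Hoxb4 had the most strong peaks of their clusters, 3 and 5. At group 7 the clusters were not alike, since Hoxb7 was assigned a strong peak of 27.1-fold and Hoxa7 had 0 peaks. That peak lay outside the body of Hoxb7, on the side of Hoxb6. Between the outer ends of Hoxb7 and Hoxb13 lay 2 peaks, 0 of them strong, with a highest fold of 8.75. The differences between clusters have no replicate error and were not tested.

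**Figure D4:**
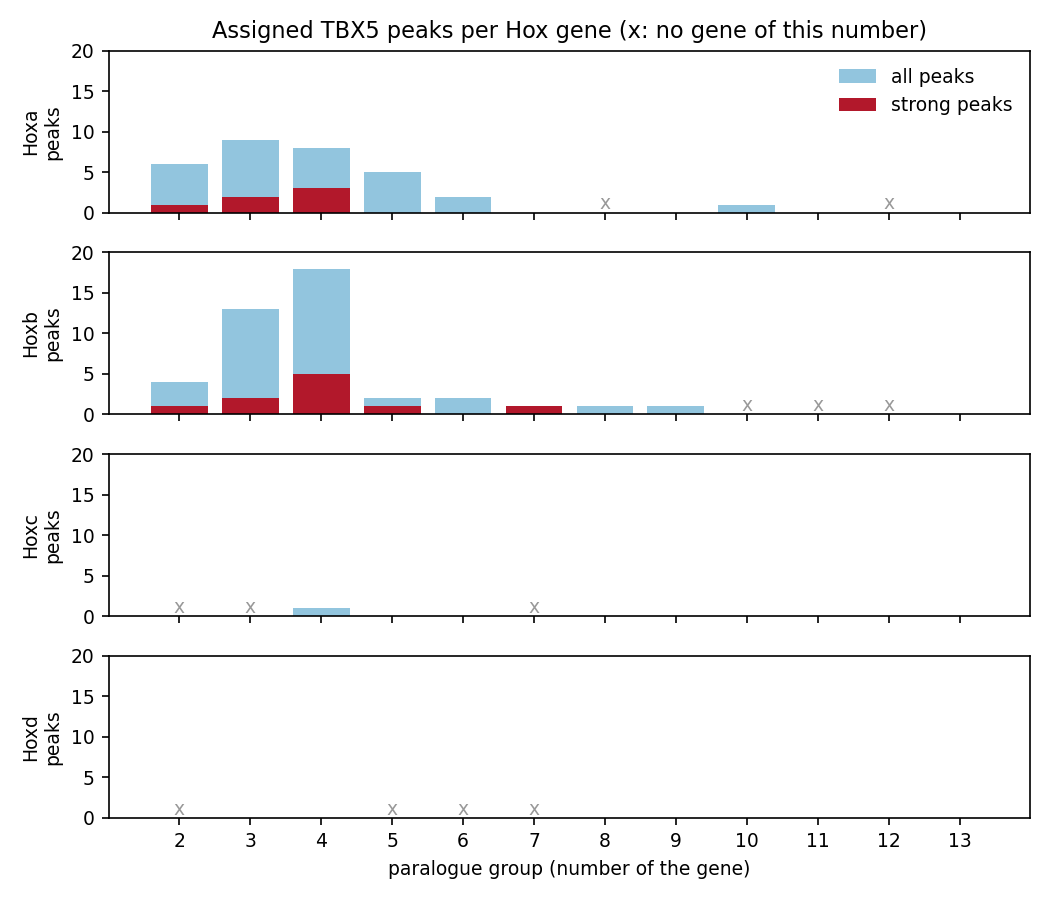
Number of assigned TBX5 peaks (blue) and of strong ones among them (red) for each protein-coding gene of the 4 Hox clusters, by paralogue group from 2 to 13. Hoxa and Hoxb carry most peaks in groups 2 to 6, Hoxc4 has 1 peak and Hoxd genes have 0.

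The crowding of summits was matched at 1 other place. A window of 45.8 kb, the length of the block from the first Hoxa2 peak to the last Hoxa6 peak, held 30 summits there. Set at each of the 28381 summits in turn, such a window held a median of 2, and 12 windows held 30 or more: 2 at Hoxa and 10 at Hoxb, where the highest number was 35. The length of the window was taken from the Hoxa block, which favours that block.

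Genes that act with Hox proteins or upstream of them were counted from a fixed list. TALE homeodomain proteins (Meis, Pbx and Pknox) bind DNA together with Hox proteins, and 6 of 8 had a peak and 3 a strong one. By −log10 q the strongest peaks were at Meis2 (30.7-fold), Pbx3 (29.8-fold) and Meis1 (16.0-fold), which had 6, 14 and 19 peaks. The highest fold at Meis1, at another peak, was 18.4. Of the Cdx genes, which activate Hox genes in the early embryo, 0 of 3 had a peak. Of 16 genes for Polycomb and trithorax proteins and Ctcf, which keep Hox clusters silent, active or divided, 11 had a peak and 4 a strong one, led by Kmt2a (27.7-fold), Jarid2 (21.9-fold) and Rbbp4 (13.9-fold). Of 7 genes for retinoic acid, an inducer of anterior Hox genes, 6 had a peak and 3 a strong one, with Aldh1a2 (36.9-fold), Rarb (21.0-fold at its strongest peak) and Cyp26b1 (10.2-fold) the highest. The shares over all protein-coding genes are the 39.8% and 10.9% given above, and these lists were not tested against them.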

How the data were processed

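TBX5 ChIP-seq had 2 ChIP libraries and 1 input library, all titled as lung, although the source field of 2 of the 3 names heart. Per the submitters' processing notes, reads were handled with Bowtie2, SAMtools and MACS2 on build mm10. Versions, settings, any merging of libraries and the control were not given in the sources used here. The deposited file is 1 list of 28381 peaks, without blacklisted regions per its name. Its columns, identified from layout and values, hold the fold ratio at the summit, the −log10 q, a score of 10 times −log10 q, and the summit offset, all as deposited by the authors. The depth is unknown.

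Genes, starts and sequences came from RefSeq tables of GRCm38.p6, and all 9 members matched by symbol. Hoxa4 had no row in the promoter table used here. Each summit went to whichever protein-coding gene had its first or last base closest, up to 100 kb away. Strong peaks were the 5000 with the highest −log10 q. Intervals are exact (95%), for counting error only. No hypothesis test was made, since 1 list without replicates allows none. Python 3.11.15, pandas 2.3.3, numpy 2.4.6 and scipy 1.17.1 were used. Assignment was checked against a direct search at positions beside RefSeq gene ends. The motif search was checked on simulated sequences with AGGTGT planted on the forward strand only. Members and lists were chosen with earlier results of these data known. Named genes were the 9 members, Hoxa13, the flanking genes, the 3 strongest of each other list and the 3 most like Hoxa5. Of the genes this rule takes, 2 are not reported here. Hox genes of other clusters and noncoding genes were named after their values were seen. Alternatives changed the assignment, distance limit, gene set, peak subset and windows. Joining close summits and leaving out the Hoxa3 body were added after seeing the data. The density on either side of the cut between Hoxa6 and Hoxa7 was not among the planned results.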

Additional observations from a re-analysis of the deposited data

How the results depend on the processing

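The number of Hoxa peaks was 31 and that of Hoxa genes with a peak 6 with assignment to the nearest body, with limits of 10 kb or 1 Mb, with peak centres and with Hoxa13 added. With folds of at least 5 they were 21 and 5, and Hoxa10 had no peak. With all annotated genes, 29 peaks lay inside a member's body or had their nearest end at a member. By nearest end alone, 5 genes then had a peak, and fewer peaks had that end at a member. The Hoxa10 peak still lay inside Hoxa10, but its nearest end was that of the noncoding gene Gm52902. Leaving out the body of Hoxa3 gave 31 with protein-coding genes only. With the upper 50% of the list by −log10 q, 15 peaks and 4 genes remained (Hoxa2 to Hoxa5), the density was 1.52 in place of 3.05 per 10 kb of cluster, the median fold 9.06, and the last summit lay 56.6 kb instead of 26.7 kb from the far end of Hoxa13. Joined summits gave 20 peaks. Of the strong peaks, 3 were among the 1000 highest, and 6 were among the 5000 highest by fold. Without gene-end peaks the median fold was 5.87. The share at gene ends was 22.6% within 500 bp, 58.1% within 2 kb and 67.7% with all annotated genes, against 14.05, 21.3 and 22.5% of all peaks. AGGTGT was found in 1 promoter with the 150 bases far from the start alone, and in 0 with the other 150. No paired analysis was possible because the list has no columns per library. Leaving out a library was not possible either. The depth of the libraries is unknown, so whether weak peaks of Hoxa7 to Hoxa13 lay under the caller's threshold was not tested.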
